A study of Mus musculus with 6 samples.

Results

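The 10 genes described here are the 2 oxygen-regulated subunits of the hypoxia-inducible factors (Hif1a and Epas1), 2 enzymes that mark them for destruction (Egln1 and Egln3) and 6 genes that these factors switch on (Bnip3, Adm, Ankrd37, Ndrg1, Car9 and Ddit4). They were chosen by name, and all 10 were found, 1 row each, among the 19928 genes of the deposited table. Adipose tissue of KM mice, an outbred laboratory stock, was sequenced in 6 libraries after poly(A) selection. The 3 RAS libraries came from mice that received radix Angelica sinensis (RAS), a dried medicinal root, at 10.00 g per kg of body weight, and the 3 control libraries came from mice whose diet is labelled only as control. The series title places the mice on a high-fat diet. The sources used here state neither the fat depot nor the sex, age or feeding time. They also do not say whether a library came from 1 animal or several, and the p-values therefore reflect only how these libraries vary. Each library held 14.4 to 15.8 M reads assigned to genes, and 12462 to 12641 genes reached 1 FPKM (fragments per kilobase of transcript, scaled to library size). All 8 fat cell markers examined (among them Adipoq, Plin1 and Fabp4) were at a mean of at least 1 FPKM and none was listed at 0 in any library.

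Hypoxia-inducible factors pair an alpha subunit, HIF1A or EPAS1, with the constant partner ARNT. In oxygenated cells prolyl hydroxylases of the EGLN family hydroxylate the alpha subunit, and the VHL ubiquitin ligase then sends it to the proteasome, so the factors are controlled mainly as proteins and their mRNA need not follow their activity. When oxygen falls the pair binds short elements in DNA and raises genes of anaerobic metabolism, vessel growth, pH control and mitochondrial removal. Adipose tissue that expands on a rich diet can become short of oxygen, and EPAS1 is also abundant in fat cells and endothelium.

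The core of the hypoxia element is ACGTG or GCGTG. Promoter windows of 300 bases (250 before to 50 after the annotated start; RefSeq, GRCm38.p6) were on hand for 8 of the 10 genes, all but Epas1 and Ndrg1. Each of the 8 held at least 1 copy of either core on either strand, and so did 43.8% of all 32841 windows, or 71.9% of the 10840 windows that were rich in CpG (16 or more), as 6 of the 8 were. Bnip3 had the most, with 5 matches, a number reached by 1.66% of all windows, followed by Ankrd37 with 4 and Hif1a with 3. The Bnip3 window held 27 CpG, against a median of 7 over all windows. The share of CpG-rich windows with 5 matches was not computed. Egln1, Adm and Ddit4 had 2 each, and Egln3 and Car9 had 1. The palindrome CACGTG counts as 2 overlapping matches, 1 per strand; it occurs in Bnip3 and in Hif1a and is also a site of other factors, the clock activators among them. A match describes the letters only. The windows below are shown because they carry the most matches (Bnip3, Ankrd37 and Hif1a) or belong to the gene with the largest log2 difference among the 8 tested (Ddit4); capitals mark the matches, which read ACGTG or GCGTG on the printed strand, or CACGT or CACGC where the match lies on the opposite strand. They lie at chr7:138909457-138909756 (minus strand) for Bnip3, chr8:45999801-46000100 (minus) for Ankrd37, chr12:73907617-73907916 (plus) for Hif1a and chr10:59951721-59952020 (minus) for Ddit4.
Bnip3: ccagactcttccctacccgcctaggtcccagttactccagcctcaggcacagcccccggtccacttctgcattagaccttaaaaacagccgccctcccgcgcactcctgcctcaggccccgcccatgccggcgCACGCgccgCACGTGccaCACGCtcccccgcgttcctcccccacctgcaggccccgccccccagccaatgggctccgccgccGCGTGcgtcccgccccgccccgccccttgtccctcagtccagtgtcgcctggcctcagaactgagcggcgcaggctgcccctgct
Ankrd37: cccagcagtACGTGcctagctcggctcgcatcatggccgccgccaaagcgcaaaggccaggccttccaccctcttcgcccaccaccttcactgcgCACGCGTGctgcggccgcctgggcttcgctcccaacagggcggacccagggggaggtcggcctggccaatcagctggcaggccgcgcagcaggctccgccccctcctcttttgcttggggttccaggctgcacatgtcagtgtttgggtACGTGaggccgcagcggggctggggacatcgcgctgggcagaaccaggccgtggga
Hif1a: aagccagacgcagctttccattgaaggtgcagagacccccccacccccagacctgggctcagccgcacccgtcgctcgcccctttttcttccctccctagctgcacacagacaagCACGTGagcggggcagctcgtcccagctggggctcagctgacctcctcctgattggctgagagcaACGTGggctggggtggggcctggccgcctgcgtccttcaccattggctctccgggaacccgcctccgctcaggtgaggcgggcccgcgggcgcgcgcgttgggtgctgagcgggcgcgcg
Ddit4: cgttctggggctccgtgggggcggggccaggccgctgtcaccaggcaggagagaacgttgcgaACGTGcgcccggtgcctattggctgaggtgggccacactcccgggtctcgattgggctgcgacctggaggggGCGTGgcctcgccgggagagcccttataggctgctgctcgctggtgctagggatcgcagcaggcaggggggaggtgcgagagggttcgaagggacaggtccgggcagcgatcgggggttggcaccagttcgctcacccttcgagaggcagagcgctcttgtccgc

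**Figure D1:**
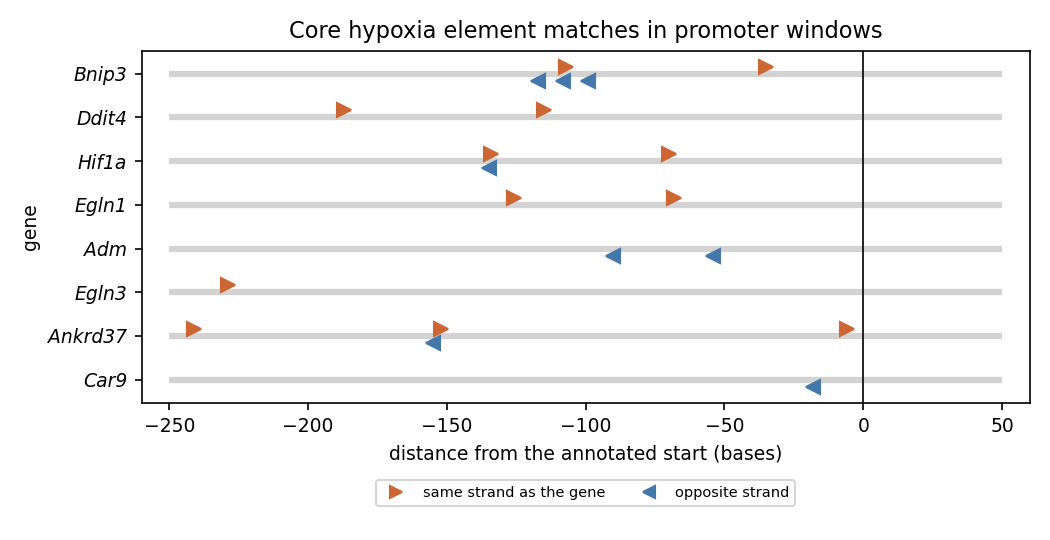
Positions of the core hypoxia element (horizontal axis, distance of the leftmost base from the annotated start, in bases) in the 300-base windows of 8 genes; right-pointing triangles are matches on the strand of the gene and left-pointing ones on the opposite strand. Bnip3 holds 5 matches and Car9 holds 1.

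Levels spanned almost 3 orders of magnitude. FPKM corrects for transcript length, so genes can be compared. Averaged over the 6 libraries, Bnip3 stood at 310.8 FPKM, Epas1 at 90.2, Ndrg1 at 50.2, Ddit4 at 42.9, Hif1a and Egln1 at 23.0 each, Adm at 10.5, Egln3 at 2.36, Ankrd37 at 0.494 and Car9 at 0.361. Neighbours in that order were not always distinct: Hif1a exceeded Egln1 in 3 of 6 libraries, Ankrd37 exceeded Car9 in 3 of 6, and both Ndrg1 above Ddit4 and Ddit4 above Hif1a held in 5 of 6. Bnip3 above Epas1, Epas1 above Ndrg1, Egln1 above Adm, Adm above Egln3 and Egln3 above Ankrd37 held in all 6 libraries. The classical hypoxia marker Car9 and the sensitive target Ankrd37 were thus the lowest of the 10, under the minimum mean of 1 FPKM that a gene had to reach to be tested; the other 8 were tested.

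**Figure D2:**
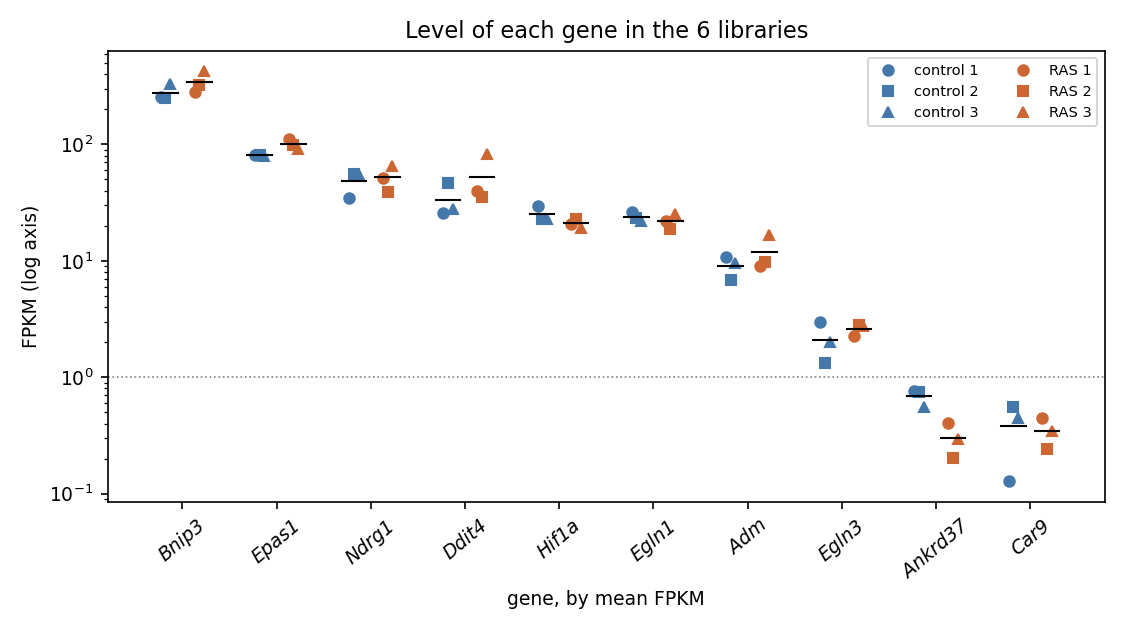
FPKM of each gene (log axis) in the 6 libraries, ordered by the mean; symbols show the library number, blue is control, orange is RAS, black bars are group means and the dotted line is the minimum of 1 FPKM. The groups lie apart for Epas1 (higher with RAS) and Ankrd37 (lower with RAS).

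None of the 8 tested genes passed the comparison of RAS with control. The test was the moderated test of limma on log2(FPKM + 1), adjusted over all 12606 genes with a mean of at least 1 FPKM, and 0 of these (0.00%) reached an adjusted p under 0.05 (smallest 0.138). Among the 8, 6 had a positive log2 difference (RAS minus control, which is the direction throughout), against 43.0% of all genes tested, and their median was 0.28, against -0.04 over all genes tested. That median fell to 0.11 without RAS 3. The unadjusted p was under 0.05 for 1 of the 8, Epas1; the share over all genes tested was 10.3% (3.86% higher and 6.41% lower with RAS, or 486 and 808 genes; the split was 684 and 623 with median-ratio size factors, 650 and 660 after quantile normalization, 636 and 667 with scaled counts and 670 and 695 without control 1). That gene was also the 1 of 8 whose RAS and control FPKM did not overlap, against 17.9% of all genes tested (5.42% higher and 12.5% lower with RAS). Both counts lie near the background.

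**Figure D3:**
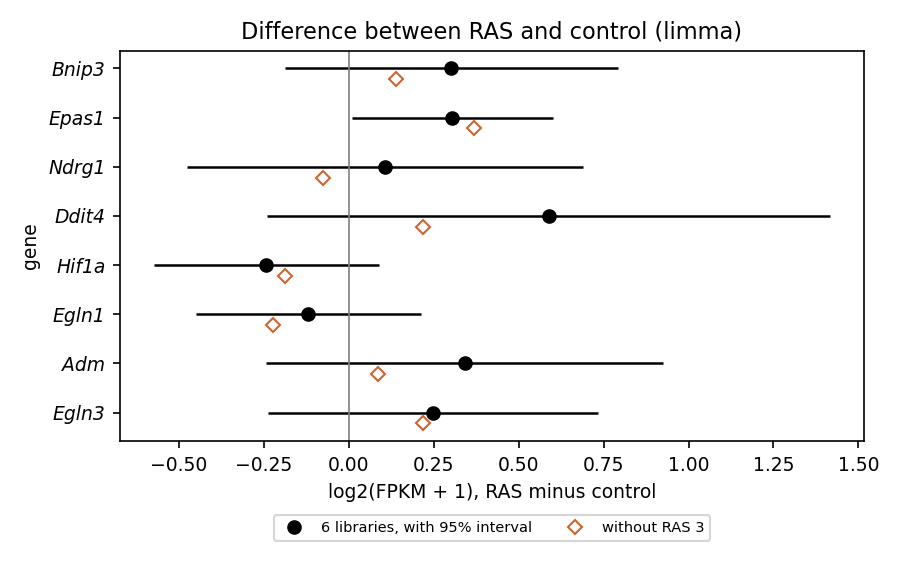
Log2 difference of each tested gene (horizontal axis, log2(FPKM + 1), RAS minus control) with the 95% interval from limma (black), and the same difference without RAS 3 (open diamonds). The interval of Epas1, 0.01 to 0.60 before adjustment, is the one that does not reach 0.

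Gene positions below are those of the deposited table, whose loci match GRCm38, and all 10 genes are annotated as protein coding. Epas1, the alpha subunit also known as HIF-2 alpha (NCBI gene 13819; chromosome 17, 86753864 to 86833410, plus strand), was the 1 of the 8 tested genes whose groups lay apart. It was at 81.3, 81.1 and 78.9 FPKM in controls 1, 2 and 3 and at 111, 98.0 and 91.2 in RAS 1, 2 and 3, resting on at least 7371 reads in every library. All 3 RAS values lay above all 3 control values, and the controls were close together. The group means were 80.4 ± 1.32 and 99.9 ± 9.83 FPKM (SD, n = 3 each), a log2 difference of 0.30 ± 0.13 (SE; limma unadjusted p = 0.046, adjusted p = 0.473). The unadjusted p was 0.137 after quantile normalization, 0.052 with a minimum of 5 FPKM, and 0.024 without RAS 3, but 0.069 to 0.164 without any other single library. Leaving out 1 library at a time gave log2 differences of 0.23 to 0.37, and the adjusted p over all alternatives was 0.319 to 0.713. Epas1 is known for its high level in endothelium: of 10 endothelial markers, 4 had a higher mean with RAS, none was listed at 0, and their summed level was 402 to 455 FPKM in control and 367 to 454 with RAS. Of the 8 fat cell markers 7 had a higher mean with RAS, with sums of 27284 to 34338 and 37808 to 53931 FPKM. Most of each sum was Fabp4, at 20821 to 26447 FPKM in control and 30163 to 45586 with RAS. The groups were apart for 2 of the 8 (Fabp4 and Cidec), where 5.42% of all genes tested were apart and higher with RAS. The median log2 difference of the 8 was 0.11. The part of these markers in the Epas1 difference was not tested. In bulk tissue, more cells of a type and more RNA per cell cannot be told apart.

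Hif1a, the alpha subunit of the factor first linked to the acute response (NCBI gene 15251; chromosome 12, 73907867 to 73947530, plus strand), leaned the other way. It was at 29.7, 22.7 and 22.9 FPKM in the controls and at 20.52, 23.0 and 19.3 with RAS. Control 1 stood above the rest, and RAS 2 lay above controls 2 and 3, so the groups overlapped. The log2 difference was -0.24 ± 0.14 (limma adjusted p = 0.598), and -0.12 without control 1.

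The ratio of Epas1 to Hif1a, which a scaling factor of a library cannot change, was computed after these values were seen. It was 2.74, 3.57 and 3.44 in controls 1 to 3 and 5.39, 4.25 and 4.72 in RAS 1 to 3, with means of 3.25 ± 0.44 and 4.79 ± 0.57 (SD, n = 3 each). Each RAS ratio exceeded each control ratio, and the two-sided exact permutation test gave p = 0.10, the smallest that 3 against 3 allows. Since the pair was singled out for its opposite differences, this is a description. Hif3a, the relative that can act as an inhibitor, was at 0.553 to 1.76 FPKM over the 6 libraries (log2 -0.02).

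The hydroxylases showed small differences. Egln1, also called PHD2 and regarded as the main oxygen sensor of the pathway (NCBI gene 112405; chromosome 8, 124908587 to 124949254, minus strand), was at 26.4, 23.4 and 21.95 FPKM in the controls and at 21.9, 18.8 and 25.4 with RAS. The groups overlapped (log2 -0.12 ± 0.14, limma adjusted p = 0.791, 95% interval -0.45 to 0.21), and the difference was -0.02 without RAS 2, -0.05 without control 1 and -0.22 without RAS 3. Egln3, also called PHD3 and itself a hypoxia target (NCBI gene 112407; chromosome 12, 54178981 to 54203874, minus strand), was at 3.00, 1.32 and 1.99 FPKM in the controls and at 2.27, 2.80 and 2.75 with RAS, on 70 to 138 reads per library. Control 1 was the highest library and control 2 the lowest, so both extremes were controls (log2 0.25 ± 0.21, limma adjusted p = 0.710; 0.45 without control 1 and 0.06 without control 2). Egln2, the third family member, was at 29.6 to 39.5 FPKM (log2 0.10), and was thus more abundant than Egln1 in every library.

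Among the targets, Bnip3 had the highest level. It encodes a mitochondrial membrane protein that recruits the autophagy machinery (NCBI gene 12176; chromosome 7, 138890836 to 138909506, minus strand). It was at 253, 248.8 and 330 FPKM in the controls and at 284, 323 and 425 with RAS. RAS 3 stood highest, while control 3 lay above RAS 1 and RAS 2. The log2 difference was 0.30 ± 0.21 (limma adjusted p = 0.656), 0.14 without RAS 3, and 0.14 after quantile normalization. Its close relative Bnip3l, which does a similar task, was at 43.0, 44.9 and 48.9 FPKM in the controls and at 59.8, 57.3 and 57.4 with RAS. There the groups did not overlap (log2 0.35 ± 0.11, limma unadjusted p = 0.017, adjusted p = 0.390).

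Ddit4, an inhibitor of the growth kinase mTORC1 that is raised by hypoxia and by glucocorticoids (NCBI gene 74747; chromosome 10, 59949675 to 59951770, minus strand), had the largest log2 difference of the 8 tested genes and the largest SE. It was at 25.6, 46.4 and 27.8 FPKM in the controls and at 40.1, 35.1 and 82.1 with RAS. RAS 3 was far above the other libraries, and control 2 exceeded RAS 1 and RAS 2. The log2 difference was 0.59 ± 0.35 (limma adjusted p = 0.610) and 0.22 without RAS 3. Ddit4 and Ndrg1 were the 2 of 8 tested genes that were highest in RAS 3 and lowest in control 1, a pattern of 5.31% of all genes tested. Of 9 genes of the glucocorticoid response, 4 had it (Fkbp5, Sgk1, Mt1 and Mt2). The pattern is that of Ddit4 itself, so a count of genes that share it is a description and not a test. Fkbp5, a chaperone that glucocorticoids induce, was at 15.7, 39.8 and 26.4 FPKM in the controls and at 34.5, 19.9 and 49.4 with RAS; the part of such signals in the Ddit4 values was not tested. Over the whole list of 9, 5 were positive and 4 negative, and 0 passed the adjusted test. Of that list, Zbtb16 (23.88 FPKM), Klf9 (28.25) and Nr3c1 (21.93) had their lowest value in RAS 3, opposite to Ddit4. Ddit4l, the paralog of Ddit4, was at 0.205 to 0.700 FPKM and was not tested.

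Ndrg1, a stress-responsive protein often used as a hypoxia marker (NCBI gene 17988; chromosome 15, 66929318 to 67013042, minus strand), was at 34.7, 56.0 and 54.3 FPKM in the controls and at 51.0, 39.3 and 65.9 with RAS. Control 1 and RAS 2 were the low libraries, and the groups overlapped. The log2 difference of 0.11 ± 0.25 (limma adjusted p = 0.907) became -0.08 without RAS 3 and -0.11 without control 1. Its relatives were also above 0, with Ndrg2 at a log2 difference of 0.26, Ndrg3 at 0.16 and Ndrg4 at 0.20, and none passed.

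Adm encodes adrenomedullin, a vasodilating peptide (NCBI gene 11535; chromosome 7, 110627669 to 110629819, plus strand). It was at 10.7, 6.78 and 9.53 FPKM in the controls and at 9.10, 9.83 and 16.8 with RAS. RAS 3 stood alone at the top, and the other 5 libraries were mixed. The log2 difference was 0.34 ± 0.25 (limma adjusted p = 0.670), 0.17 without control 2 and 0.08 without RAS 3. The adrenomedullin receptor is the product of Calcrl joined to a RAMP protein. Calcrl was at 6.95, 7.86 and 6.17 FPKM in the controls and at 5.28, 5.84 and 4.51 with RAS, each RAS value below each control value (log2 -0.36 ± 0.13, limma unadjusted p = 0.025, adjusted p = 0.425). Ramp2 was at 92.9 to 112 FPKM in control and 111 to 147 with RAS (log2 0.32, adjusted p = 0.532), and Ramp3 was below 1 FPKM in all 6. The related peptide gene Calca was at 1.07 to 1.37 FPKM in control and 1.65 to 1.97 with RAS (log2 0.33 ± 0.13, limma adjusted p = 0.468).

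Ankrd37, a small ankyrin repeat protein whose gene responds strongly to hypoxia in many cell types (NCBI gene 654824; chromosome 8, 45996908 to 45999850, minus strand), was at 0.758, 0.752 and 0.555 FPKM in the controls and at 0.403, 0.203 and 0.295 with RAS. Each RAS value lay below each control value, opposite in direction to most of the other targets. These levels rested on 8, 9 and 6 reads in the controls and 4, 2 and 3 with RAS. From the summed reads, 23 and 9, the ratio of RAS to control was 0.409 with a 95% exact interval of 0.167 to 0.917, which covers counting error only. In a fit of all 19928 genes with no minimum the log2 difference was -0.38 ± 0.08 (limma unadjusted p = 0.0039, adjusted p = 0.369); with a pseudocount of 0.1 in place of 1 it was -0.997. Ufsp2 and Lrp2bp overlap Ankrd37 on the opposite strand, and no strand-specific step is given in the labels, so their reads cannot be told apart. Antisense transcripts also overlap Hif1a, Bnip3, Adm, Ndrg1 and Car9, and the table gives Hif1a, Ndrg1 and Car9 a locus shared with another transcript, so the same holds for them.

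Car9, a membrane carbonic anhydrase that acidifies the surroundings of hypoxic cells (NCBI gene 230099; chromosome 4, 43505657 to 43513725, plus strand), was at 0.128, 0.560 and 0.450 FPKM in the controls and at 0.444, 0.241 and 0.344 with RAS. The reads numbered 4 to 19 per library. The groups overlapped, and the ratio of RAS to control from 37 and 30 summed reads was 0.847 with a 95% exact interval of 0.505 to 1.41. The related enzymes Car12 and Car14 were at 0.028 to 0.210 and 0.630 to 1.02 FPKM.

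Viewed by library, the 8 tested genes did not vary as 1 block. RAS 3 held the highest value of 4 of them (Bnip3, Adm, Ndrg1 and Ddit4), against 23.8% of all genes tested, and control 1 held the highest of 3 (Hif1a, Egln1 and Egln3), against 30.0%. The mean deviation of the 8 from their gene means was 0.34 in RAS 3, and -0.13 to -0.01 in the other 5 libraries, on the log2 scale. RAS 1 and RAS 2, at -0.01 and -0.04, lay just above the controls at -0.07, -0.13 and -0.09. The FPKM of all genes together was also largest in RAS 3, at 545256 against 411840 to 481212 elsewhere. The mean deviation of other genes of like level was not computed, so the 0.34 is not shown to be particular to these 8. RAS 3 also held the highest sums of brown fat and red blood cell markers. The 6 brown fat genes summed to 967 FPKM there against 53.2 to 313 elsewhere. The 4 red blood cell genes summed to 2267 against 516 to 1549. The mean was higher with RAS for all 6 and all 4, and none was at 0. Of all genes tested, 43.0% had a positive log2 difference. For the brown fat genes the higher mean rested largely on RAS 3. In RAS 1 and RAS 2, Ucp1, Cox7a1, Cox8b and Dio2 lay within their control ranges, while Cidea and Elovl3 exceeded every control. Of the red blood cell genes, Hba-a1 and Hba-a2 were highest in RAS 3. Beta-s (653 FPKM) and Alas2 (14.5) were highest in RAS 1, against 500 and 10.9 in RAS 3. The part of these brown fat and red blood cell markers in the values of RAS 3 was not tested. Liver markers were highest in control 3 (163 FPKM summed, against 9.69 to 26.2 elsewhere), a library that was the highest for none of the 8 and the lowest for 1; Fgb, Apoa1, Apoa2 and Ttr were listed at 0 in some libraries. Skeletal muscle markers summed to 68.8 to 198 FPKM in control and 22.1 to 60.5 with RAS (Myh4 listed at 0 in 3 libraries). Most of each sum was Acta1, at 66.78 to 179.96 FPKM in control and 21.19 to 59.57 with RAS. Ckm, Tnnc2, Tnni2, Myh4 and Mb were each highest in control 1. They were at most 0.729 FPKM in controls 2 and 3 and at most 0.454 with RAS. The macrophage sums (348 to 562 and 432 to 557) and mesothelium sums (28.0 to 225 and 89.3 to 147) overlapped; the part of these cells in the values was not tested.

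**Figure D4:**
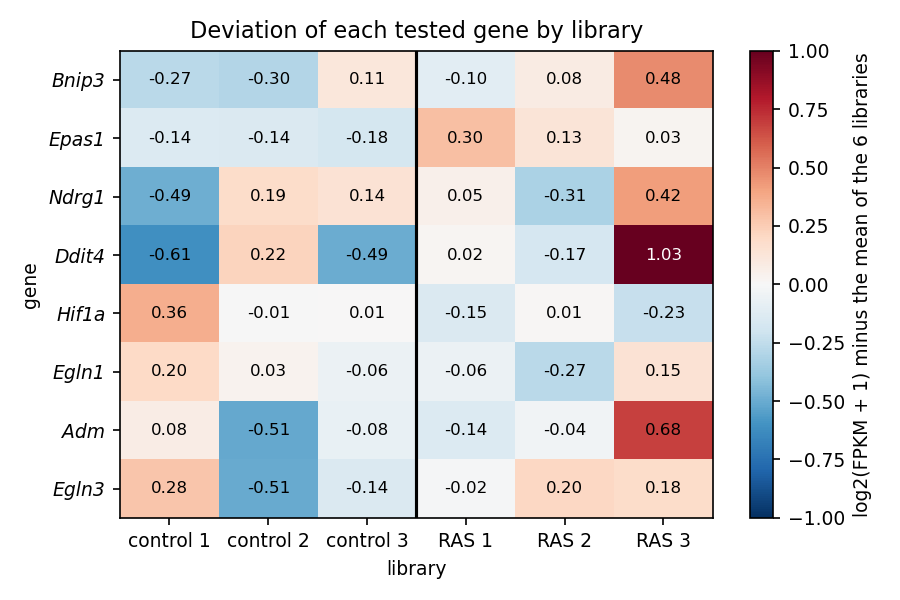
Deviation of each tested gene (rows) in each library (columns) from its mean over the 6 libraries, on the log2(FPKM + 1) scale; red is higher and blue is lower, and the colour scale ends at 1. Ddit4 at 1.03 and Adm at 0.68 in RAS 3 are the highest cells, and Epas1 is positive in the 3 RAS libraries and negative in the 3 controls.

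Other genes of the pathway were taken from 4 lists, and 0 of their tested members passed the adjusted test. Of 17 tested partners and regulators of the factors, 10 were positive and 7 negative, with a median of 0.01 and none at an unadjusted p under 0.05 (10.3% of all genes tested). The constant partner Arnt was at 16.8, 18.8 and 17.9 FPKM in control and at 19.8, 21.2 and 19.3 with RAS, so that its groups were apart by a narrow margin (log2 0.16 ± 0.10, limma adjusted p = 0.627). Cited2, which competes with the alpha subunits for their coactivators, was at a log2 difference of 0.37 (0.17 without control 1 and 0.20 without RAS 3). The ubiquitin ligase Siah1a was at 0.21 and the coactivator Crebbp at -0.21, and without RAS 3 these became 0.064 and -0.0017.

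Of 19 glycolytic genes tested, 14 were positive, against 43.0% of all genes tested, with a median of 0.19. An unadjusted p under 0.05 was reached by 1 in each direction, a share close to the 10.3% of all genes tested. Pfkfb3, which makes the main activator of glycolysis, was at 92.9, 61.1 and 55.8 FPKM in the controls and at 139, 143 and 74.9 with RAS (log2 0.74 ± 0.30, limma adjusted p = 0.468); RAS 3 lay below control 1. Pfkp, a phosphofructokinase subunit, was at 24.8, 14.9 and 18.1 and at 13.8, 13.6 and 13.7, each RAS value below each control (log2 -0.43 ± 0.18, adjusted p = 0.468; -0.25 without control 1). Gpi1 (log2 0.43) and Eno1 (0.53), both enzymes of the glycolytic chain, had overlapping groups, with control 1 among the high libraries of Eno1, which was at 0.87 without control 1 and 0.35 without control 3.

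Of 18 vessel and secreted factors tested, 5 were positive and 13 negative, with a median of -0.15, where 43.0% of all genes tested were positive. There 2 were higher (Vegfa among them; 3.86% of all genes tested) and 3 lower (Apln, Angpt2 and the collagen cross-linker Loxl2, log2 -0.42; 6.41% of all genes tested) at an unadjusted p under 0.05; Loxl2 is named after its value was seen. Vegfa, the main growth factor for vessels, was at 64.4, 60.1 and 60.7 FPKM in control and at 81.5, 101 and 128.5 with RAS, each RAS value above each control (log2 0.72 ± 0.18, limma adjusted p = 0.299). Apln, the peptide apelin, was at 7.23, 4.903 and 7.27 in the controls and at 3.54, 2.25 and 2.48 with RAS (log2 -0.99 ± 0.19, adjusted p = 0.240). Angpt2, which loosens vessel walls, was at 6.95, 9.03 and 9.99 and at 5.04, 2.76 and 4.99 (log2 -0.90 ± 0.22, adjusted p = 0.283). The groups of Apln and Angpt2 did not overlap, where 12.5% of all genes tested were apart and lower with RAS. Choosing genes by their p favours such separation here too.

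Of 22 other hypoxia-induced genes tested, 13 were positive, against 43.0% of all genes tested, with a median of 0.08, and 4 had an unadjusted p under 0.05, all on the higher side (3.86% of all genes tested); whether the list differs from other genes was not tested. These were Bnip3l, given above, the clock-linked repressor Bhlhe40 (4.01 ± 0.255 and 6.29 ± 1.48 FPKM, SD, n = 3 each, log2 0.52), the zinc finger protein Zfp395 (9.95 ± 0.699 and 13.2 ± 2.12, log2 0.37) and the selenium-binding protein Selenbp1 (97.5 to 102 and 114 to 129, log2 0.30). In each of the 4 every RAS value exceeded every control value, which held for 5.42% of all genes tested. Their limma adjusted p values were 0.386 to 0.468. Choosing genes by their p favours such separation.

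**Figure D5:**
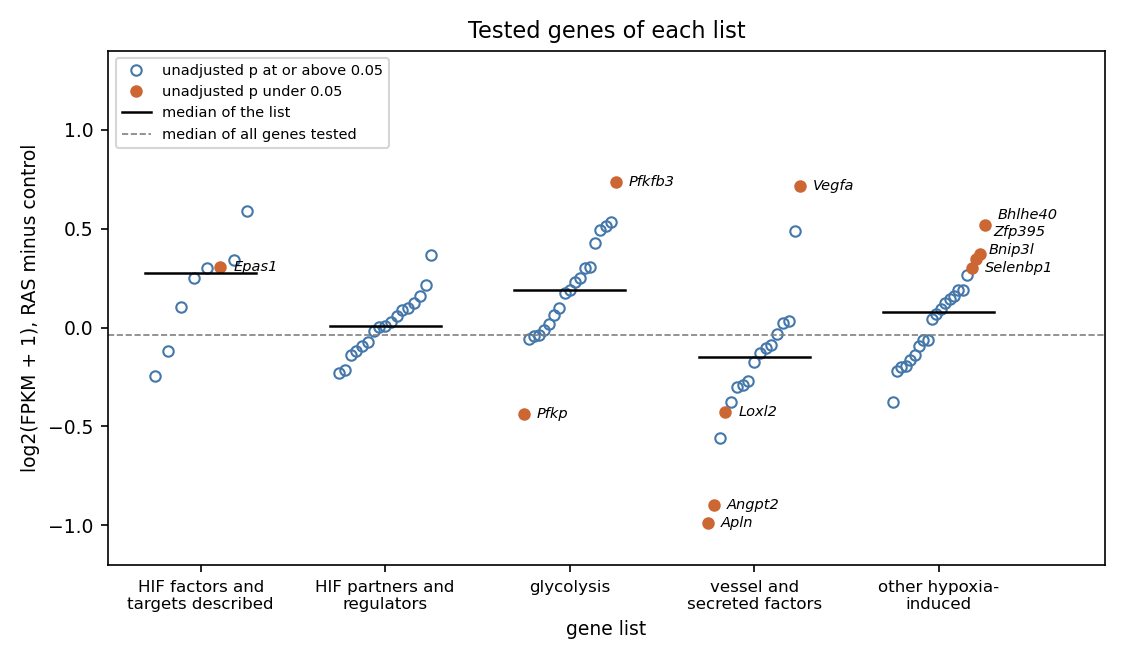
Log2 difference (RAS minus control) of the tested genes in 5 lists, leaving out 1 vessel gene that the medians and counts include; filled orange points have an unadjusted p under 0.05, black bars are list medians and the dashed line is the median of all genes tested (-0.04). Medians run from -0.15 (vessel and secreted factors) to 0.28 (the 8 tested genes described here), and points of both signs occur in every list.

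Among the relatives of the 10 genes given above, 9 were tested, of which 7 were positive and 2 negative (Hif3a and Calcrl), with a median of 0.20 and 0 past the adjusted test.

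The genes whose pattern over the 6 libraries was most like that of Hif1a were Ccdc21, Paqr9 and Gm7072 (Pearson r on log2 values of 0.99 each), and those most like Epas1 were E130307A14Rik, Hapln3 and Inf2 (0.988 to 0.995). In all, 266 genes reached 0.9 with Hif1a and 93 with Epas1 over the 6 libraries, which share their scaling. The named genes were picked as the highest among all genes tested, over only 6 libraries, so their values are a description. How many genes reach 0.9 with other genes was not computed, and shared regulation was not tested.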

How the data were processed

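RNA-seq of adipose tissue covered 3 control and 3 RAS libraries. The authors deposited 1 table with FPKM values and a scaled count signal per gene and library; the submitters' processing notes list TopHat2 2.0.9 as well as Cufflinks 2.1.1, while build and annotation are not stated there. Loci overlapped the GENCODE M21 (GRCm38) gene of the same identifier for 99.67% of 18403 genes; starts count from 0 in the table, and 1 was added. Columns named for the group that the treatment protocol ties to RAS were taken as RAS, and the other numbered set as control by elimination; 4 columns that hold group values were left out. Of the values of the deposited count signal, 99.29 to 99.38% (of those under 1000 reads and above 0) were whole multiples, within 0.02, of the value of 1 read in their library, which gave the read numbers and 14.4 to 15.8 M assigned reads per library; no count model was run on it.

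Testing covered genes whose mean FPKM reached 1, with limma (lmFit, eBayes with a trend) on log2(FPKM + 1), as two-sided tests; p-values were adjusted by Benjamini and Hochberg's method and called under 0.05. Log2 differences on this scale understate the change of low genes. The 10 genes, the lists and the tests were chosen with earlier results of these data known. Named from each of the 4 pathway lists were the 4 genes with the smallest p, plus relatives of the 10 genes, and for Hif1a and Epas1 the 3 most similar genes; 1 vessel gene that the rule names is not reported here. Of 19 vessel genes, 18 were found; Rack1 (as Gnb2l1), Pkm (Pkm2) and Adgre1 (Emr1) were matched through NCBI gene numbers. Alternatives were a pseudocount of 0.1, no minimum or one of 5 FPKM, quantile normalization, median-ratio size factors, a block on the replicate number, and omitting libraries singly. Chosen after seeing the data were 2 more: replacing FPKM by the scaled counts, and omitting both control 1 and RAS 3. The test was also run on simulated data. The outcome is not reported here, so nothing is concluded from it about the size of difference the test could detect. Computation used limma 3.58.1 (R 4.3.3), scipy 1.17.1, numpy 2.4.6, pandas 2.3.3 and matplotlib 3.10.9 (Python 3.11.15).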

Additional observations from a re-analysis of the deposited data

How the results depend on the processing

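None of the 8 tested genes passed the adjusted test in any of the 14 alternatives; the smallest adjusted p was 0.319, for Epas1. Over all genes, 0 to 2 passed when 1 library was left out and 3 without control 1 and RAS 3 together, none of them among the 10 genes. The number of the 10 genes at an unadjusted p under 0.05, 1 with all libraries, was 2 with no minimum, where Ankrd37 is added, 0 with a minimum of 5 FPKM, 0 after quantile normalization and 0 to 1 with 1 library left out (Egln3 without control 1, Epas1 without RAS 3). Over all genes, 1692 of 19928 were under 0.05 with no minimum and 911 of 8648 with a minimum of 5 FPKM. Quantile normalization gave 1310 of 12606, and leaving out 1 library gave 987 to 1365. The median log2 difference of 0.28 was 0.11 to 0.30 with 1 library left out, lowest without RAS 3, and 0.0696 without control 1 and RAS 3. Of the 10 genes, 8 kept their sign in every alternative that gave a value; quantile normalization gave none for Ankrd37 and Car9. Ndrg1 ranged from -0.2954 to 0.2886 when libraries were left out, with -0.113 without control 1, -0.0771 without RAS 3 and the lowest value without both. Car9 ranged from -0.1676 to 0.0682, with positive values without control 2 (the highest), control 3 (0.0156) and RAS 2 (0.0283), and 0.0385 with the scaled counts. Of the 16 pathway genes that the naming rule chose, 15 kept their sign, and Cited2 ranged from -0.0039 (without control 1 and RAS 3) to 0.6042. The cause of these changes was not tested. The replicate block left 1 of the 10 genes at an unadjusted p under 0.05 and 0 genes past the adjusted threshold, with 1663 against 1294 of all genes under 0.05 unadjusted. Deviations of equally numbered libraries from their group means correlated at 0.178, 0.096 and 0.219, and every library correlated best with its own number. These correlations are low, the design names no pairing, and whether the libraries are paired was not tested. Depth limits Ankrd37 and Car9, at 2 to 19 reads per library.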
